A study of Mus musculus with 12 samples.

Results

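Lecticans, tenascins and testicans are matrix proteins of the developing brain, and 10 genes of this group were followed by symbol in RNA-seq libraries of the mouse cerebral cortex at embryonic day 15.5. The 10 genes are the lecticans Bcan, Ncan and Vcan, the related proteoglycan gene Cspg5, the link protein gene Hapln1, the tenascins Tnc and Tnr, and the testicans Spock1, Spock2 and Spock3. Each symbol matched 1 of the 51912 Ensembl genes in the files, and 9 of the 10 passed the filter on low counts that left 10678 genes for testing. The study compared 6 Emx1-Cre Arid1a conditional mutants with 6 controls, whose alleles the labels do not describe further. Arid1a encodes a subunit of the BAF chromatin remodelling complex, and Emx1-Cre recombines in dorsal telencephalic progenitors and their descendants, so interneurons, vessels and microglia of the same tissue keep the gene. The mutants came 2 from litter 1 and 4 from litter 2, the controls 4 from litter 1 and 2 from litter 2. Of the mutants 5 were female, and of the controls 2 were female. Neither litter nor sex was balanced between the genotypes. Unless another fit is named, each genotype and litter effect below comes from 1 model with terms for genotype, litter and sex. In litter 1 both mutants were female, and among its controls only control 1 was. Fits of litter 1 alone had no sex term, so their values mix genotype with sex.

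In brain matrix, long chains of hyaluronan are bound by the globular ends of lecticans, and link proteins hold the bond in place. The other end of a lectican binds tenascins, which join several lecticans into a mesh. Chondroitin sulfate chains on the lectican core carry charge and bind growth factors and receptors. Testicans are small proteoglycans of the SPARC family with a calcium-binding domain and a thyroglobulin-like domain, and they carry heparan sulfate or chondroitin sulfate chains. In the fetal cortex this matrix surrounds radial glia, the subplate and growing axons, while the dense nets around mature neurons form only after birth.

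The 250 bases before the RefSeq start are shown for Bcan, Spock1 and Tnc, the members with the strongest genotype and litter differences. All 3 lie on the minus strand of GRCm38.p6 (the assembly of mm10) and are printed 5′ to 3′ in the direction of the gene: Bcan at chr3:88000357-88000606, Spock1 at chr13:57908333-57908582, and Tnc at chr4:64047016-64047265, before the more upstream of its 2 RefSeq starts. The RefSeq start of Bcan lies 126 bases upstream of the start in GENCODE M21, and for Spock1 and Tnc both annotations give the same base. Capitals mark matches, on either strand, to the AP-1 motif TGANTCA, to TTGGC (the core of a nuclear factor I site) and to the TATA box TATAAA, and no match overlaps another.
Bcan: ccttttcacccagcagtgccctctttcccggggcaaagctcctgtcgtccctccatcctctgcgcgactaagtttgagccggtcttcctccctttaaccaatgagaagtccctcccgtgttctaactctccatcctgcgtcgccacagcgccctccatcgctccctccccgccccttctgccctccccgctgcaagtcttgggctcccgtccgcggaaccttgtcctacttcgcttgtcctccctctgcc
Spock1: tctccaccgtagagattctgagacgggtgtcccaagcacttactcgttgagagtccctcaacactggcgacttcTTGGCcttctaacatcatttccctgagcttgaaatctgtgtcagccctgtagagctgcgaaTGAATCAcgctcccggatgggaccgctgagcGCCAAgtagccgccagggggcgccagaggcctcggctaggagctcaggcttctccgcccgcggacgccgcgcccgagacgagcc
Tnc: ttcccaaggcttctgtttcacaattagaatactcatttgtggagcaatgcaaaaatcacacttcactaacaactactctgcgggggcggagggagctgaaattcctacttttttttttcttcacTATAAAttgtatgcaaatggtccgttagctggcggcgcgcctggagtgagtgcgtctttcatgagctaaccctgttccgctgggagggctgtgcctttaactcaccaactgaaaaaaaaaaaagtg

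The Bcan window held none of these matches, the Spock1 window held 1 AP-1 match and 2 TTGGC matches, and the Tnc window held 1 TATA box. Of 32851 RefSeq windows of this length, 6.7% held an AP-1 match, 41.5% a TTGGC match and 12.4% a TATA box. CpG pairs numbered 16 for Bcan, 20 for Spock1 and 8 for Tnc, against a median of 6 (quartiles 2 and 16) over all windows. The GC content was 62.0% for Bcan, 61.2% for Spock1 and 44.8% for Tnc, against a median of 52.4%. These matches describe letters and were not tested as binding sites.

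Depth differed widely between the libraries. Counts on genes ran from 643197 to 3525121 in mutants (median 997033) and from 1476478 to 2815042 in controls (median 2347837), and mutant 1 and mutant 4 were the shallowest. Levels are given as CPM (gene counts relative to the library's total) after scaling by the trimmed mean of M-values (TMM), which corrects for library size and composition. Arid1a itself, summed over the whole gene, had a genotype log2 fold change of -0.30 (SE 0.0958, adjusted p = 0.277 by edgeR), and so did not pass the test. A gene total does not isolate a floxed exon, so it is a weak check of the labels.

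The counts took in introns as well as exons. Only 1 of 299 protein-coding genes lying inside another gene of the same strand had any count, against 326 of 528 (61.7%) of those lying inside a gene of the opposite strand only. A long gene such as Spock1 (487138 bases, of which 8365 are exonic) can thus gather many intronic reads, and levels of the members are compared with one another only per length, on 2 scales. Per kilobase of exon, in the 6 controls, Ncan stood highest at 62.8 ± 2.80 CPM per kb (SD, n = 6), followed by Spock1 at 59.0 ± 17.1, Vcan at 29.0 ± 3.90, Tnc at 22.9 ± 12.3, Tnr at 17.9 ± 2.22, Spock2 at 13.0 ± 6.10, Bcan at 5.34 ± 2.54, Cspg5 at 3.96 ± 1.39, Spock3 at 3.35 ± 2.99 and Hapln1 at 0.0544 ± 0.102 CPM per exon kb. Along this order the ranges of the 6 controls separated only between Spock1 and Vcan and between Spock3 and Hapln1. Per kilobase of the whole gene span Ncan was again first, at 16.3 ± 0.725 CPM per kb, and Vcan was second at 4.81 ± 0.646. Spock1 fell to seventh place on the span scale, at 1.01 ± 0.294 CPM per span kb, followed by Tnr at 0.564 ± 0.0699 and Spock3 at 0.0499 ± 0.0445. Spock2, Cspg5, Tnc and Bcan lay between Vcan and Spock1 with means of 1.71 to 2.47 CPM per span kb, and their ranges overlapped from neighbour to neighbour.

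Bcan, which encodes brevican, the lectican with the shortest core, was lower in the mutant cortex. Mutants 1 to 6 had 4.56, 11.7, 4.71, 5.14, 1.71 and 5.58 CPM of Bcan. Controls 1 to 6 had 38.0, 14.8, 26.7, 25.8, 13.9 and 11.0 CPM. All mutants but mutant 2 lay below every control, and within each litter all mutants lay below all controls. Each litter set 2 libraries against 4, and the share of all genes split in this way was not counted. Bcan averaged 21.7 ± 10.3 CPM over controls and 5.57 ± 3.30 CPM over mutants (SD, n = 6 per genotype), and the genotype log2 fold change was -1.79 (SE 0.348, 95% interval -2.52 to -1.06, adjusted p = 0.0391, edgeR's quasi-likelihood test with Benjamini-Hochberg adjustment over all 10678 genes). By litter, Bcan averaged 20.3 ± 12.1 CPM in litter 1 and 7.01 ± 4.53 CPM in litter 2, and the litter log2 fold change (litter 2 minus litter 1) was -1.15 (SE 0.298, adjusted p = 0.0672), which did not pass. Among the controls alone the 4 of litter 1 (14.8 to 38.0 CPM) lay above both of litter 2 (11.0 and 13.9 CPM). The share of all genes with this split of the controls was not counted either. In litter 1 alone, without a sex term, the genotype value of Bcan was -1.64 (SE 0.489, adjusted p = 0.198), and in litter 2 alone it was -1.61 (SE 0.415, adjusted p = 0.176). The interaction of litter and genotype was 0.12 (SE 0.743, adjusted p = 0.991).

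Bcan rested on few reads: 345 counts in all, from 3 to 91 per library, and mutants 1, 4 and 5 had 3, 4 and 4 counts. Its call was lost when any 1 of mutants 1 to 5 or of controls 1, 5 and 6 was left out (adjusted p from 0.0579 to 0.277), and the value was nearest to 0 without control 1, the highest library, at -1.38 (SE 0.408, adjusted p = 0.277). The sign was negative in all 28 alternatives, and Bcan passed in 13 of them. Without the 2 shallowest libraries the value was -1.74 (adjusted p = 0.220).

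Ncan, which encodes neurocan, a lectican of embryonic and early postnatal brain, hardly varied. Mutants ranged from 407 to 545 CPM (median 446) and controls from 422 to 475 CPM (median 457). The 2 groups lay over one another, with 2 mutants above and 2 below all controls. The genotype log2 fold change of Ncan was 0.04 (95% interval -0.17 to 0.24, adjusted p = 0.978) and the litter value was 0.09 (95% interval -0.09 to 0.27, adjusted p = 0.671, both by edgeR). The coefficient of variation over all 12 libraries was 8.55%, the smallest among the 10 members.

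Vcan encodes versican, a large lectican made by many embryonic tissues as well as brain. The 6 mutants held 339, 318, 330, 357, 301 and 339 CPM, and the 6 controls held 449, 435, 458, 477, 348 and 351 CPM. The 4 controls of litter 1 stood apart from all other libraries, while the 2 controls of litter 2 lay within the range of the mutants. How many of all genes show this split was not counted. The genotype value was -0.21 (SE 0.0986, adjusted p = 0.544) and the litter value was -0.19 (SE 0.0879, adjusted p = 0.306), and neither passed. In litter 1 alone the Vcan value was -0.48 (SE 0.123, adjusted p = 0.123), and in litter 2 alone, without a sex term, -0.07 (SE 0.112, adjusted p = 0.956). The interaction, tested over all 12 libraries with a sex term, was 0.37 (SE 0.158, unadjusted p = 0.0333 by edgeR), and after adjustment it did not pass (adjusted p = 0.629).

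Cspg5, whose product neuroglycan C is a transmembrane chondroitin sulfate proteoglycan of neurons, did not separate the groups. Mutants ranged from 24.4 to 54.3 CPM (median 43.3) and controls from 25.3 to 57.9 CPM (median 34.7). Litter 1 had 47.5 ± 11.3 CPM and litter 2 had 33.5 ± 9.19 CPM (SD, n = 6 each), with overlapping ranges. The genotype log2 fold change was 0.37 (95% interval -0.15 to 0.88, adjusted p = 0.739), and the litter log2 fold change was -0.60 (95% interval -1.04 to -0.16, adjusted p = 0.173, both by edgeR).

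Hapln1, the link protein that locks lecticans onto hyaluronan, was close to undetected. It had 9 counts in 3 mutant libraries and 5 counts in 2 control libraries, and 0 in the other 7. A count of 0 allows up to 3 counts, which is 0.831 to 3.85 CPM in the mutants at 0 and 1.12 to 2.12 CPM in the controls at 0 (counting error only). Hapln1 did not reach the filter and no difference was detectable at this depth. Link protein genes lie beside lectican genes in the genome, with no protein-coding gene between them. Bcan, Ncan and Vcan each had far more counts than the link protein gene beside them (counts not scaled to length). Bcan (345 counts) lies 21.5 kb from Hapln2 (4 counts) on chromosome 3, Ncan (10002 counts) lies 2.2 kb from Hapln4 (2 counts) on chromosome 8, and Vcan (8610 counts) lies 43.7 kb from Hapln1 (14 counts) on chromosome 13. Acan, the gene of aggrecan, had 10 counts, and its neighbour Hapln3 on chromosome 7 had 34. All 4 link protein genes and Acan stayed below the filter, so at this depth the lectican transcripts in these libraries were those of Ncan, Vcan and, at a lower level, Bcan.

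Tnc encodes tenascin-C, an oligomeric glycoprotein of radial glia and other progenitors, and it followed litter. In litter 1, mutants 1 and 2 had 269 and 236 CPM and controls 1 to 4 had 314, 152, 231 and 225 CPM. In litter 2, mutants 3 to 6 had 66.7, 41.1, 47.5 and 53.0 CPM and controls 5 and 6 had 74.1 and 72.2 CPM. Every library of litter 1 lay above every library of litter 2, among mutants and among controls as well as over all 12. The mean was 238 ± 53.5 CPM in litter 1 and 59.1 ± 13.8 CPM in litter 2 (SD, n = 6 each), a 4.02-fold difference of means. The litter log2 fold change was -1.95 (SE 0.147, 95% interval -2.26 to -1.63, adjusted p = 2.15e-05 by edgeR's quasi-likelihood test), and Tnc ranked 1 of 10678 genes by its p. It passed in all 24 alternatives, with values from -2.14 to -1.86.

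The genotype value of Tnc was -0.38 (SE 0.171, 95% interval -0.75 to -0.02, adjusted p = 0.538) and did not pass. In litter 2 all 4 mutants lay below both controls, and the value there, without a sex term, was -0.43 (SE 0.176, adjusted p = 0.578). The share of all genes with that split of 4 against 2 libraries was not counted. In litter 1 the groups overlapped and the value, also without a sex term, was 0.12 (SE 0.261, adjusted p = 0.907). The interaction was -0.42 (SE 0.283, adjusted p = 0.794), so no difference between the litters in the genotype effect was shown. The means over all mutants (119 ± 104 CPM) and all controls (178 ± 95.9 CPM) do not take litter into account: 4 of 6 mutants but 2 of 6 controls came from litter 2.

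Tnr encodes tenascin-R, the tenascin of oligodendrocyte lineage cells and some neurons that binds brevican and other lecticans. Mutants ranged from 164 to 299 CPM (median 236) and controls from 197 to 275 CPM (median 226), and the groups overlapped. The genotype log2 fold change of Tnr was 0.03 (95% interval -0.24 to 0.30, adjusted p = 0.990) and the litter value was 0.15 (95% interval -0.09 to 0.39, adjusted p = 0.578, both by edgeR).

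**Figure D1:**
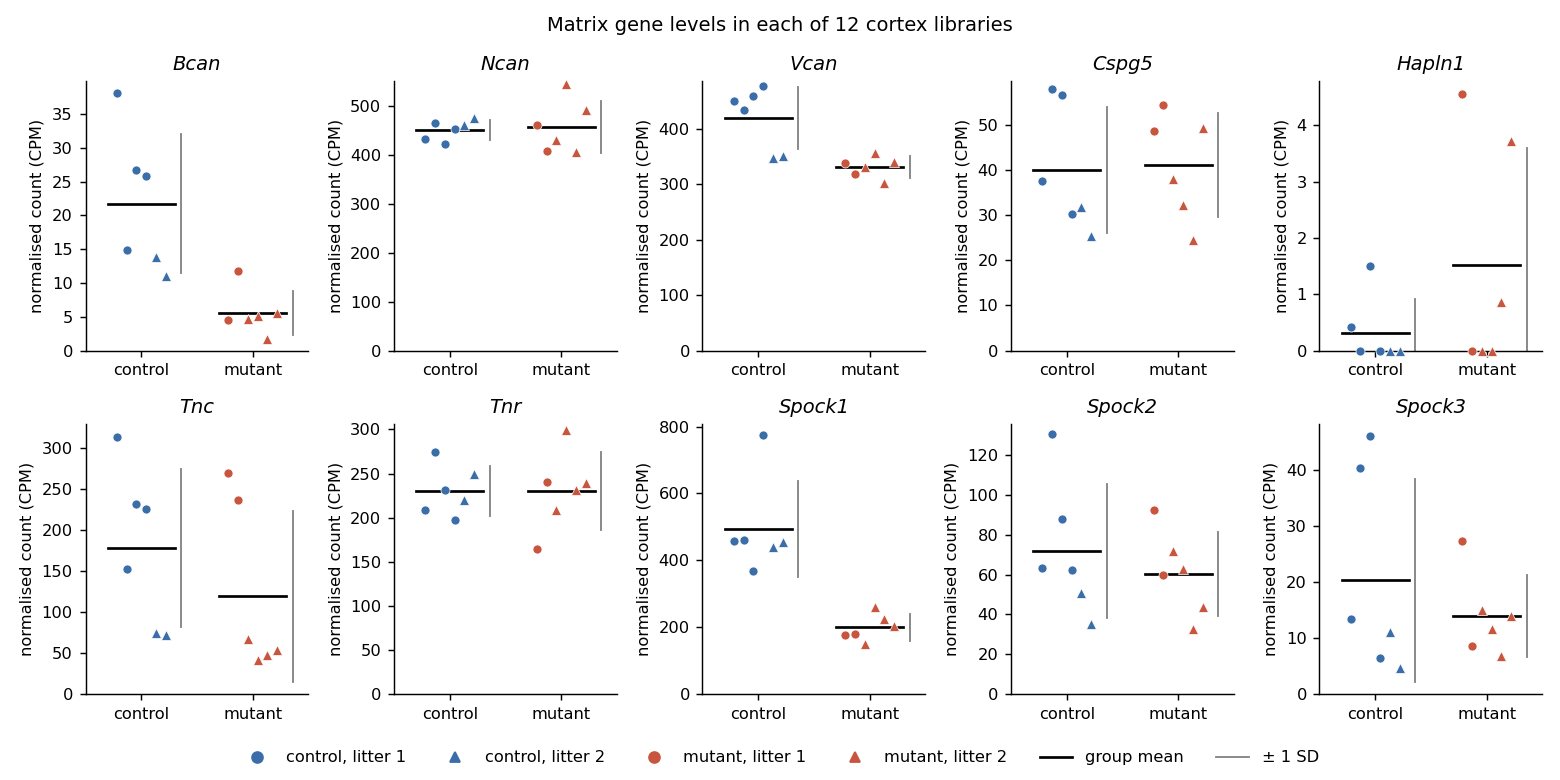
Normalised counts (CPM, linear axes from 0) of the 10 genes in the 6 control and 6 mutant libraries, with circles for litter 1, triangles for litter 2, a black line for the group mean and a grey bar for 1 SD on either side (lower end drawn no further than 0). Spock1 separates the genotypes (149 to 261 CPM in mutants, 368 to 776 CPM in controls), whereas Tnc separates circles from triangles in both genotypes (152 to 314 against 41.1 to 74.1 CPM).

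Spock1, which encodes testican-1, was the 1 member whose 6 mutants all lay below all 6 controls. The mutants had 176, 179, 149, 261, 224 and 204 CPM, and the controls had 459, 462, 368, 776, 439 and 455 CPM. Control 4 stood far above the other controls, and the highest mutant, mutant 4, lay 107 CPM under the lowest control. Spock1 averaged 493 ± 143 CPM over controls and 199 ± 39.7 CPM over mutants (SD, n = 6 per genotype), a 2.48-fold difference of means. The genotype log2 fold change was -1.18 (SE 0.216, 95% interval -1.66 to -0.71), with an unadjusted p of 0.000204 and an adjusted p = 0.0599 in edgeR's quasi-likelihood test, which just missed the threshold of 0.05. The litter log2 fold change was 0.00 (-0.0025, 95% interval -0.44 to 0.44, adjusted p = 0.998).

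Spock1 had 8324 counts, from 116 to 2078 per library, so it was far better counted than Bcan. Its sign was negative in all 29 alternatives (-1.55 to -1.06), and it passed in 12 of them. Without control 4 the value was -1.14 (SE 0.133, adjusted p = 0.00096), and without control 3 it was -1.21 (SE 0.177, adjusted p = 0.0153). In each of the other 10 fits that left out 1 library Spock1 did not pass, and the highest adjusted p among them was 0.313, without control 6 (-1.11, SE 0.309). Without the 2 shallowest libraries the value was -1.25 (adjusted p = 0.393). DESeq2 gave -1.18 (adjusted p = 9.44e-05) and limma-voom -1.18 (adjusted p = 0.0845). In the litters separately, without a sex term, the value was -1.55 in litter 1 (SE 0.326, adjusted p = 0.129) and -1.11 in litter 2 (SE 0.173, adjusted p = 0.0232). The interaction was 0.30 (SE 0.432, adjusted p = 0.915).

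Spock2, the gene of testican-2, overlapped between the genotypes, with mutants from 32.5 to 92.7 CPM (median 61.3) and controls from 35.0 to 131 CPM (median 62.7). Its genotype value was 0.35 (95% interval -0.31 to 1.02, adjusted p = 0.829), and its sign depended on the covariates: it was -0.266 without litter and sex terms and -0.185 in litter 1 alone. Litter 1 had 82.8 ± 27.4 CPM and litter 2 had 49.5 ± 15.6 CPM (SD, n = 6 each), and the litter value was -0.74 (95% interval -1.31 to -0.16, adjusted p = 0.208 by edgeR). Without mutant 3 the litter value was -0.89 (adjusted p = 0.0442), the 1 alternative of 24 in which Spock2 passed.

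Spock3, the gene of testican-3, had a coefficient of variation of 79.5% over the 12 libraries, the largest of the 3 testicans. Mutants 1 to 6 had 27.4, 8.51, 15.0, 11.6, 6.85 and 13.9 CPM, and controls 1 to 6 had 13.4, 40.3, 46.0, 6.35, 11.0 and 4.60 CPM. Controls 2 and 3 and mutant 1, all of litter 1, were high, and neither the genotypes nor the litters separated. The genotype value was 0.57 (95% interval -1.09 to 2.24, adjusted p = 0.915) and the litter value was -1.12 (95% interval -2.51 to 0.27, adjusted p = 0.433, both by edgeR), and both intervals are wide. The genotype value turned to -0.61 without litter and sex terms and to -0.63 in litter 1 alone. Summed markers of the ganglionic eminence and striatum, which a cortical dissection can carry along, stood at 1012 CPM in control 2, 568 CPM in control 3 and 714 CPM in mutant 1, against 48.5 to 251.8 CPM in 7 other libraries. The same sum was 514 CPM in mutant 3 and 1134 CPM in mutant 6, which ranked next for Spock3. The 5 libraries with the highest striatal sums were thus the 5 with the highest Spock3 levels (13.9 CPM or more), although mutant 6, with the highest sum, was the lowest of the 5 for Spock3. Most of the striatal sum is Ebf1 (325 CPM on average over the 12 libraries). For Cspg5 the same 5 libraries had 37.9 to 57.9 CPM, mutant 2 had 54.3 CPM and the others had 37.6 CPM or less. The part of this tissue in the Spock3 and Cspg5 values was not tested.

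For genotype, 1 of 9 tested members passed (Bcan, lower in mutants), against 23 of 10678 genes (0.215%) in either direction and 17 (0.159%) lower. For litter, 1 of 9 passed (Tnc), against 140 of 10678 genes (1.31%). Spock1 was the 1 member with no overlap between 6 mutants and 6 controls, as were 135 genes (1.26%), and Tnc the 1 member with no overlap between the litters, as were 177 genes (1.66%). The interaction called 0 genes in edgeR (0.0%), with 776 genes and, among the members, Vcan alone at an unadjusted p under 0.05. DESeq2 called 6 genes for the interaction and limma-voom 0.

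The median genotype log2 fold change of the 9 members was 0.03, and that of all genes tested was 0.00 (-0.0009), with 4 members negative and 5 positive. For litter the median of the members was -0.60 and that of all genes -0.01 (-0.0056), with 7 members negative and 2 (Ncan and Tnr) positive. The median size of the change, whatever its sign, was 0.37 for genotype and 0.60 for litter among the members, against 0.14 and 0.16 over all genes tested. The members were chosen with earlier results of these data known, so these medians describe them only.

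**Figure D2:**
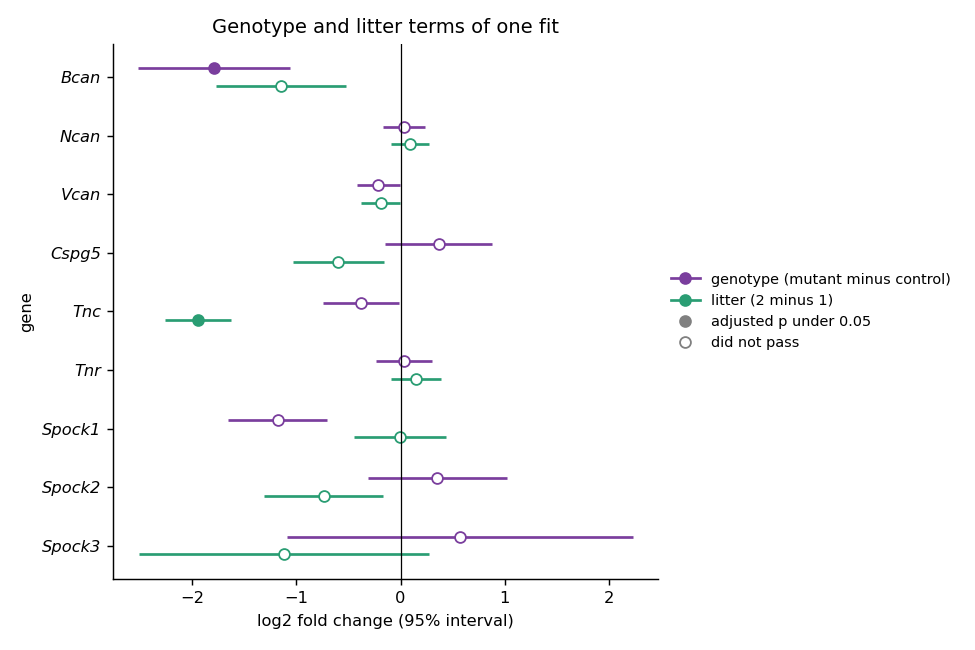
Log2 fold changes of the 9 tested members for genotype (mutant minus control) and for litter (litter 2 minus litter 1) from 1 edgeR fit, with 95% intervals; filled points have an adjusted p under 0.05. Bcan is the filled genotype point at -1.79, Tnc the filled litter point at -1.95, and Ncan and Tnr lie near 0 on both.

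Other genes that build, hold or read this matrix were counted in 8 lists, of which 57 genes beside the members were tested. For genotype 1 of these 57 was lower and 0 higher, and for litter 0 were lower and 1 higher in litter 2 (edgeR, adjusted p under 0.05). Over all 10678 genes tested, 23 (0.215%) passed for genotype and 140 (1.31%) for litter, in either direction. The gene lower in mutants was Ust, a sulfotransferase that adds sulfate to the uronic acid of chondroitin and dermatan sulfate. It fell from a mean of 137 CPM in controls to 69.8 CPM in mutants, and its genotype value was -0.94 on the log2 scale (SE 0.151, adjusted p = 0.0108). It was 1 of 18 tested genes of chondroitin and dermatan sulfate synthesis, of which 10 had negative and 8 positive genotype values. Xylt1, which starts the chains, had -0.24 (adjusted p = 0.783), and Chsy3, which extends them, had 0.17 (adjusted p = 0.941), so neither passed. Chst7, Chst13, Chst14 and Chst15 were below the filter.

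For hyaluronan synthesis, turnover and receptors, 4 of 12 genes were tested. Cemip, which encodes a protein needed to break down hyaluronan, rose from a mean of 19.7 CPM in litter 1 to 53.5 CPM in litter 2, and its litter value was 1.32 (SE 0.210, adjusted p = 0.00602). Its genotype value was 0.83 (SE 0.233, adjusted p = 0.209). Cemip2, the related cell surface hyaluronidase, had litter and genotype values of 0.27 (adjusted p = 0.347) and 0.16 (adjusted p = 0.851). The hyaluronan synthases Has1, Has2 and Has3 had 2, 41 and 66 counts and were below the filter, as were Hyal1, Cd44, Lyve1, Stab1 and Stab2.

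Among other tenascins and tenascin partners 0 of 6 tested genes passed for genotype (4 negative, 2 positive) and 0 of 6 for litter (4 negative, 2 positive). Among them were the cell adhesion genes Cntn2 (genotype 0.02, adjusted p = 1.00; litter 0.41, adjusted p = 0.445) and Cntn1 (genotype -0.22, adjusted p = 0.910; litter -0.72, adjusted p = 0.189). Tnn, Tnxb and Itgb3 were below the filter. Of the other SPARC family genes 0 of 4 tested passed on either term, and all 4 litter values were negative. Smoc1 had 0.05 for genotype (adjusted p = 0.985) and -0.22 for litter (adjusted p = 0.443), Fstl1 had -0.59 for genotype (SE 0.169, adjusted p = 0.212) and -0.32 for litter (adjusted p = 0.298), and Smoc2 was below the filter.

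Other chondroitin sulfate proteoglycan cores and their ligands gave 0 of 6 on either term. Ptprz1, a receptor phosphatase whose shed form is the proteoglycan phosphacan and which binds tenascins, had -0.30 for genotype (adjusted p = 0.417) and -0.38 for litter (SE 0.103, adjusted p = 0.0805). App, of which a minor form carries a chondroitin sulfate chain, had 0.04 and 0.09 (adjusted p = 0.978 and 0.651), and Dcn, Bgn, Cd74, Thbd and Srgn were below the filter. Of the matrix proteases and inhibitors 0 of 11 passed on either term, with 8 of 11 genotype values negative. Mmp16 had a genotype value of -0.09 (adjusted p = 0.911) and Mmp24 of -0.13 (adjusted p = 0.894), and Adamts4, Adamts5, Adamts15, Mmp2, Mmp9, Timp1 and Timp4 were below the filter. Of the chondroitin sulfate receptors 0 of 8 passed, with genotype values of -0.11 for Ptprd (adjusted p = 0.911) and 0.42 for Erbb4 (adjusted p = 0.711), and Erbb3 was below the filter. Over these 3 lists and the tenascin and SPARC lists the count at an unadjusted p under 0.05 was 5 of 35 tested genes for genotype and 11 for litter, against 937 and 1641 of 10678 genes.

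**Figure D3:**
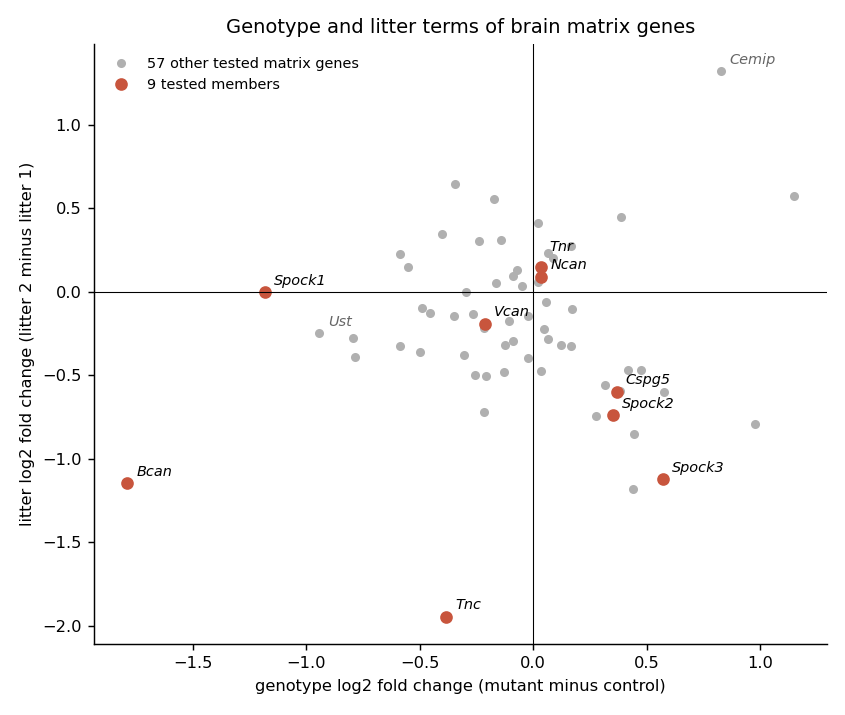
Genotype log2 fold change (x axis) against litter log2 fold change (y axis) of the 9 tested members, in red with names, and 57 other tested matrix genes in grey, both terms from 1 edgeR fit. Bcan at -1.79 and Spock1 at -1.18 lie farthest to the left, Tnc lies lowest at -1.95, and Ust and Cemip are the 2 grey genes that passed on 1 term.

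In tissue RNA, fewer cells of a type and less RNA per cell cannot be told apart. Markers of subplate neurons, summed over 8 genes, were 454 to 633 CPM in mutants and 641.5 to 1325 CPM in controls and did not overlap between the groups, as for Spock1. Most of that sum is Zfpm2 (294 CPM in mutants and 651 CPM in controls on average), and 0 of the 5 tested subplate markers passed for genotype (4 negative). Layer 6 markers summed to 4272 to 6014 CPM in mutants and 5186 to 7227 CPM in controls, and 1 of 6 passed, Tle4, at -0.81 (SE 0.121, adjusted p = 0.00961). Most of the layer 6 sum is Nfib (3330 CPM in mutants and 4100 CPM in controls on average), which did not pass. Sums of oligodendrocyte precursor markers, a lineage that expresses Bcan later in life, overlapped between mutants (13.7 to 39.0 CPM) and controls (15.2 to 43.1 CPM). The part of these cell types in the Bcan and Spock1 values was not tested.

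Radial glia, a source of Tnc, had marker sums of 361 to 824 CPM in litter 1 and 497 to 718 CPM in litter 2. These ranges overlapped, with 0 of 8 tested radial glia markers called for litter (5 negative, 3 positive). The Tnc ranges of the same libraries did not overlap, and the part of radial glia in the Tnc values was not tested. Sox2 had 0 counts in every library, and so did Tubb3. Both genes lie in another gene of the same strand, where reads were not counted, so their zeros say nothing of the cells. Neuronal markers moved with litter in the other direction from Tnc: Tbr1, a transcription factor of early-born neurons, had 168 CPM in litter 1 and 265 CPM in litter 2 (log2 fold change 0.74, SE 0.0988, adjusted p = 0.00125). Bcl11b, a transcription factor of deep-layer neurons, had 570 and 948 CPM (0.68, SE 0.142, adjusted p = 0.0281). Whatever else differed between the litters cannot be told apart from litter here.

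**Figure D4:**
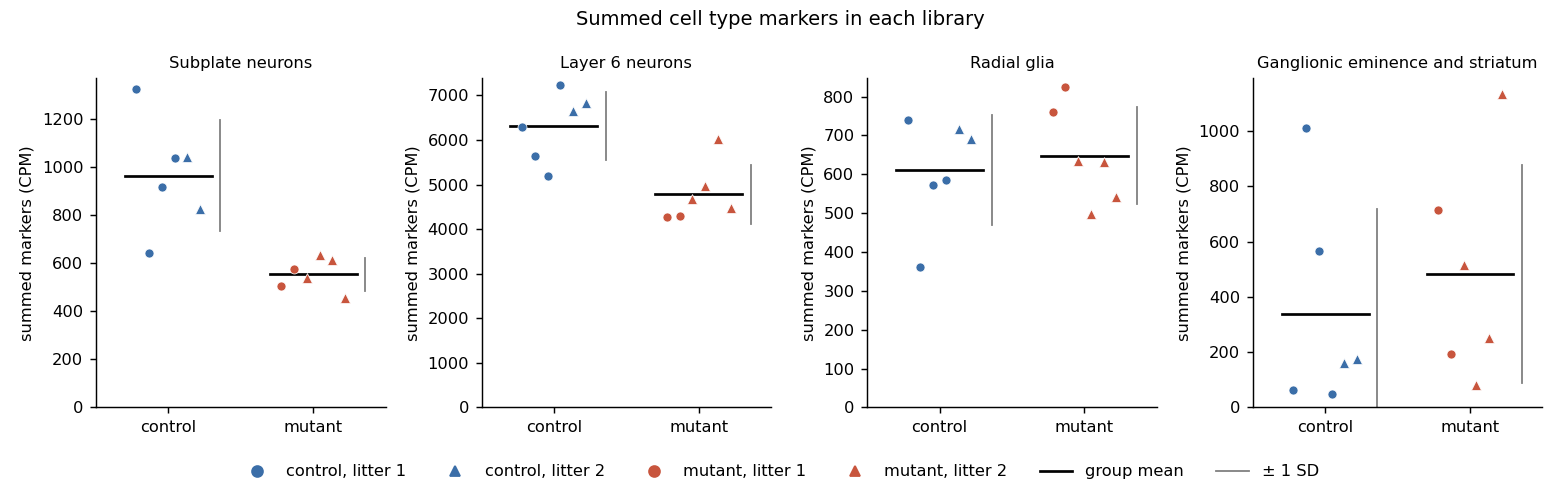
Summed CPM of marker genes (linear axes from 0) for 4 cell types in each control and mutant library, with circles for litter 1, triangles for litter 2, a black line for the mean and a grey bar for 1 SD on either side (lower end drawn no further than 0). The subplate sum separates mutants (at most 633 CPM) from controls (at least 641.5 CPM), the radial glia sum separates neither genotypes nor litters, and the striatal sum is highest in mutant 6 (1134 CPM) and control 2 (1012 CPM).

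The 5 genes most like Bcan over the 12 libraries, by Pearson's r of log2(CPM + 0.5) among 10103 genes with a mean of at least 5 CPM, were Rgs7bp (r = 0.932), Chrna7 (0.931), Lmo7 (0.921), Ryr3 (0.904) and Pak7 (0.903). Of these Lmo7, the gene of a LIM domain protein, was itself lower in mutants (log2 fold change -2.66, SE 0.357, adjusted p = 0.00961). The 5 most like Spock1 were Hs3st4 (0.967), Prickle1 (0.963), Zeb2 (0.961), Rgs6 (0.959) and Ctnnd2 (0.955). Rgs6, a regulator of G protein signalling, was lower in mutants (-1.48, SE 0.193, adjusted p = 0.00961), and Hs3st4, a heparan sulfate sulfotransferase and layer 6 marker, had -1.04 (SE 0.266, adjusted p = 0.214). The 2 sets of 5 shared no gene. These correlations are descriptions across 12 libraries that differ in depth and genotype, and the genes were picked as the highest of all.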

How the data were processed

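RNA was measured in 12 libraries of cortex at embryonic day 15.5. Per the labels' protocols, ribosomal RNA was depleted from total RNA and ClickSeq turned it into libraries: azido-nucleotides end random-primed cDNA, and a tagged adaptor is joined by click chemistry. The submitters' processing notes name STAR 2.5.2a, UMI-tools 0.5.3, HTSeq 0.6.1p1, cutadapt 1.13, edgeR 3.20.9 and bcl2fastq 2.17, and the build mm10. Annotation release, feature type and strand setting: not given in the sources used here. In the deposited files stand raw counts per Ensembl gene, which the authors did not normalize, and entries naming no gene (20.7 to 31.6% of a file's total) were left out. That whole gene bodies were counted by strand, without reads shared by several genes, was read from the counts of nested genes. Symbols came from GENCODE M21 (47734 identifiers matched with version, 3985 without, 193 not matched), and upstream windows from RefSeq (GRCm38.p6), which had 9 of the 10 members.

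Genes were kept by filterByExpr (minimum count 10), scaled by TMM and tested with edgeR 4.0.16 under R 4.3.3 (glmQLFTest after a robust glmQLFit). The model held genotype, litter and sex, with 8 residual degrees of freedom. A gene was called where its Benjamini-Hochberg adjusted p, over all genes tested, was under 0.05, and intervals are 95%. DESeq2 1.42.0, limma-voom (limma 3.58.1), other scalings and filters, fits without covariates, each litter alone, females alone, equal depth and leaving out libraries were alternatives. The script was tested on simulated data. Tables and plots used Python 3.11.15, pandas 2.3.3 and matplotlib 3.10.9. No 2 libraries were copies (chi-square per degree of freedom 1.86 to 15.1 over 66 pairs). The labels give each library a litter and a sex but do not say that each came from its own embryo, so p-values measure the spread between libraries. Replicate numbers follow the order of deposit and pair nothing.

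The members, the matrix lists, the marker lists and the rule for named genes (the 10 members, Arid1a, up to 4 called genes and the 2 tested genes of highest CPM (not scaled to length) per matrix list, genes below the filter, and the 5 genes most like Bcan and Spock1) were chosen with earlier results of these data known. Markers that moved with a member are named outside that rule, after their values were seen.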

Additional observations from a re-analysis of the deposited data

Results flagged for a closer look

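In 20 groups of 6 libraries (10 genes in 2 genotypes), 2 had a highest library set apart from the rest by more of the group's range than Dixon's test allows at 95%, and chance marks about 1 in 20 groups. Spock1 in control 4 was 775.9 CPM, while the other controls ran from 368 to 462 CPM, so the gap took 0.769 of the range. Without that library the genotype value of Spock1 was -1.14 (adjusted p = 0.00096 by edgeR). Hapln1 in control 3 was 1.507 CPM (gap 0.723 of the range), a value that rests on 4 counts beside 1 count in all other controls together.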

How the results depend on the processing

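Of the 23 genes called for genotype, the count was 261 without a filter on low counts, 37 with a CPM of at least 1 in 6 libraries, 95 with DESeq2, 77 without the sex term, 141 without litter and sex terms, 59 in litter 1 alone, 40 in litter 2 alone (64 with a sex term), 44 in females alone and 0 without the 2 shallowest libraries, mutants 1 and 4 (700 at an unadjusted p under 0.05); leaving out 1 library gave 6 to 55. For litter (140 genes) it was 593 without a filter, 264 with DESeq2, 32 in females, 45 without the 2 shallowest libraries and 74 at equal depth; leaving out 1 library gave 27 to 212, the lowest without control 5. For the interaction (0 genes) it was 75 without a filter, 6 with DESeq2 and 22 in females, and 0 to 1 with 1 library left out. Genotype called 2 members in place of 1 without a filter, without robust fitting, with DESeq2, and without the sex term or both covariates, and 0 with limma-voom, in litter 1 alone and without the 2 shallowest libraries; leaving out 1 library gave 0 to 2. Litter called 3 members without a filter and 2 with DESeq2, and 1 to 2 with 1 library left out.

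Some values that were not called changed sign. For genotype, Ncan was -0.016 without the sex term, -0.035 in litter 1, -0.052 in females and -0.088 without the 2 shallowest libraries, and -0.047 to 0.116 with 1 library left out. Tnr was -0.001 without a filter, -0.05 without the sex term, -0.165 in litter 1 and -0.09 in females, and -0.077 to 0.17 with 1 library left out. Tnc was 0.117 in litter 1. Spock2 was -0.266 without both covariates and -0.185 in litter 1, and Spock3 was -0.009 without the sex term, -0.614 without both covariates and -0.628 in litter 1. For litter, Spock1 was 0.011 with upper-quartile scaling, 0.017 without a filter, 0.015 with the CPM filter, 0.004 with DESeq2, 0.008 with limma-voom, 0.069 in females, 0.09 at equal depth and 0.037 with the trend on gene span removed, and -0.072 to 0.129 with 1 library left out. The Bcan interaction was -0.381 without the 2 shallowest libraries and -0.436 to 1.049 with 1 library left out. The cause of these differences was not tested.

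The genotype call of Bcan was also lost without the litter term (-2.26, adjusted p = 0.0610), in females alone (-1.81, adjusted p = 0.0602) and with limma-voom (-1.79, adjusted p = 0.0845), and at equal depth Bcan did not reach the filter. The litter call of Tnc kept its direction and passed in all 24 alternatives. Depth limits Hapln1, Bcan and Spock3 most. No paired analysis was possible because the replicate numbers follow the order of deposit and pair nothing.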

Other observations

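The 13 marker lists for cell types, with 0 to 8 genes tested in each, held 1 gene called for genotype (Tle4) and 2 for litter (Tbr1 and Bcl11b). Over all 10678 genes tested, 23 (0.215%) were called for genotype and 140 (1.31%) for litter. All 8 interneuron markers had positive genotype values (median 0.56) and 0 passed, with sums of 288 to 724 CPM in mutants and 204 to 678 CPM in controls. All 5 tested markers of the ganglionic eminence and striatum were positive for genotype (median 1.27) and negative for litter (median -1.26), and 0 passed. Cajal-Retzius markers, a type of cell that makes Reln, summed to 298 to 597 CPM in mutants and 397 to 853 CPM in controls, and markers of cortical neurons to 1804 to 2501 and 2078 to 3618 CPM. Most of the Cajal-Retzius sum is Reln itself (389 CPM in mutants and 532 CPM in controls on average). Of the 5 tested Cajal-Retzius markers, 3 had negative and 2 positive genotype values, and 0 passed. Endothelial markers summed to 57.8 to 86.2 CPM in mutants and 61.4 to 87.9 CPM in controls, pericyte markers to 32.5 to 57.7 and 29.0 to 55.1 CPM, and microglial markers to 7.60 to 16.0 and 10.8 to 15.9 CPM. Meningeal markers, which would mark attached membranes, summed to 3.19 to 11.2 CPM in mutants and 6.35 to 38.2 CPM in controls, and choroid plexus markers to 0 to 6.42 and 0 to 167 CPM, both highest in control 5. In control 5 none of the 10 members was the highest or the lowest of all 12 libraries, apart from the zeros of Hapln1.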
